A study of Mus musculus with 8 samples.

Results

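The follicular and peripheral helper genes described here are Maf, Bcl6, Icos, Cd200, Cxcr5, Il21 and Angptl2. They were chosen by name, with earlier results of these data known, and make up 7 of the 13341 genes in the deposited table. Their counts beside all genes are therefore descriptive only. RNA was sequenced in duplicate from 4 kinds of sorted T cell, namely kidney CD4+ T cells, spleen CD4+ T cells, kidney CD8+ T cells and spleen CD8+ T cells, which gave 8 libraries. Every group was sorted as CD44hi, a surface level that marks cells with antigen experience, and every mouse was an MRL/lpr animal of 14 weeks. MRL/lpr mice carry the lpr mutation of Fas, a death receptor of lymphocytes, and develop a lupus-like disease of the kidney, so no group came from healthy animals or had intact Fas. The question was how T cells in the inflamed kidney compare with those of the spleen in each lineage.

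Follicular helper T cells are CD4+ T cells that help B cells make antibody in the germinal centres of lymphoid organs. They enter the B cell follicle through the chemokine receptor CXCR5, depend on the repressor BCL6 and on the costimulatory receptor ICOS, and secrete the cytokine IL-21, whose gene is a target of the transcription factor MAF. Peripheral helper T cells, described in inflamed human tissue, give similar help outside follicles with MAF, ICOS and IL-21 but little CXCR5 or BCL6.

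Il21 and Angptl2 encode the secreted members and had the largest fitted differences between CD4+ and CD8+ T cells, so the sequences around their start sites are shown first. Each runs from 250 bases before to 50 bases after the start site on the gene's own strand, from RefSeq on build GRCm38.p6. The Il21 window is chr3:37232587-37232886 on the minus strand, and the Angptl2 window is chr2:33215711-33216010 on the plus strand. Capitals mark matches, on either strand, to 4 motifs: GGAAA (the core bound by NFAT factors), TTCNNNGAA (bound by STAT factors and close to the BCL6 motif), TGCTGA (a MAF half-site) and TGANTCA (bound by AP-1).

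Il21: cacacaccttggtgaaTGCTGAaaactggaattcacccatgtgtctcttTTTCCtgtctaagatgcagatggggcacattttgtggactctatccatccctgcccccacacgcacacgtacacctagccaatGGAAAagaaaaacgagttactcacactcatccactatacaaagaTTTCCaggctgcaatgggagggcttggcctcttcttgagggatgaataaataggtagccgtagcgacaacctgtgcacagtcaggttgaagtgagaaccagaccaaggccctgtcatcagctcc

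Angptl2: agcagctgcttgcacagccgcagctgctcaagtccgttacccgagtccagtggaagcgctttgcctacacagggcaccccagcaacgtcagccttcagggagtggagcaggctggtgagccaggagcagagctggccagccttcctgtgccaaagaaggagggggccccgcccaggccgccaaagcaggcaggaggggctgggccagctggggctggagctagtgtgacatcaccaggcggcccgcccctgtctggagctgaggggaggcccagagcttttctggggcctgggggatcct

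The Il21 window held 3 matches to GGAAA, first bases at -201, -118 and -74 from the start site, and 1 match to TGCTGA at -234. No match overlapped another. The Angptl2 window held 0 matches to the 4 motifs, and so did that of Cd200. Of the 2 RefSeq windows of Bcl6, the upstream one held 1 GGAAA and 1 TTCNNNGAA, and the downstream one 4 GGAAA and 3 TTCNNNGAA. Of 32851 mouse promoters of 300 bases, 61.3% held GGAAA, 19.5% TGCTGA, 8.30% TTCNNNGAA and 7.81% TGANTCA. RefSeq entries were matched for 4 of the 7 members (Il21, Angptl2, Bcl6 and Cd200), and Cxcr5, Icos and Maf are named only. A match describes the letters and does not show a bound site.

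Values below are normalised levels, the deposited counts scaled per library, in which 1 read was worth 0.554 to 1.04. Libraries held 7477544 to 11169003 reads. Differences are log2 differences of level + 1 with their standard error (SE), and adjusted p-values are from limma with Benjamini-Hochberg adjustment over the 10845 genes that reached a level of 10 in at least 2 libraries. All 7 members were among these. Angptl2 reached that level in CD4+ libraries only. The labels do not say whether duplicates came from separate animals or from pools, so p-values measure the spread between these libraries, which may be technical. These are bulk samples, in which fewer cells of a type and less RNA per cell cannot be told apart. T cell marker genes were detected in all groups, 10 of 10 with summed levels from 97762 to 149662. Cd44 RNA averaged 1287 and 611 in kidney and spleen CD4+ T cells, against 390 and 232 in kidney and spleen CD8+ T cells. Sorting was by surface level, so this RNA does not show how the groups compare in antigen experience. The 2 kidney CD4+ libraries were unlike each other, with an SD of the log2 replicate difference of 1.35 over 2939 genes, against 0.334 in spleen CD4+, 0.422 in kidney CD8+ and 0.339 in spleen CD8+ T cells. Among fits that left out 1 library, those without a kidney CD4+ library called the most genes in every contrast. Calls gained in such fits are therefore not particular to the members.

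The fullest set of calls was between CD4+ and CD8+ T cells. Averaged over kidney and spleen, Angptl2, Maf, Il21 and Icos rose, 4 of the 7 members, where 0.858% of all 10845 tested genes were called higher. The difference was positive for all 7, with a median of 2.74 against 0.02 over all tested genes. In 5 of the 7 members every CD4+ library lay above every CD8+ library, as did 3.61% of all genes; the exceptions were Cxcr5 and Bcl6. Within spleen alone 3 members were called higher in CD4+ cells (Maf, Angptl2 and Icos), with 0.231% of all genes, and within kidney alone only Angptl2 was, with 0.083%. Groups were apart for 6 of 7 members in spleen and 5 of 7 in kidney, beside 26% and 14.1% of all genes. These 3 contrasts share libraries, so the pooled one is not further support for the other 2.

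**Figure D1:**
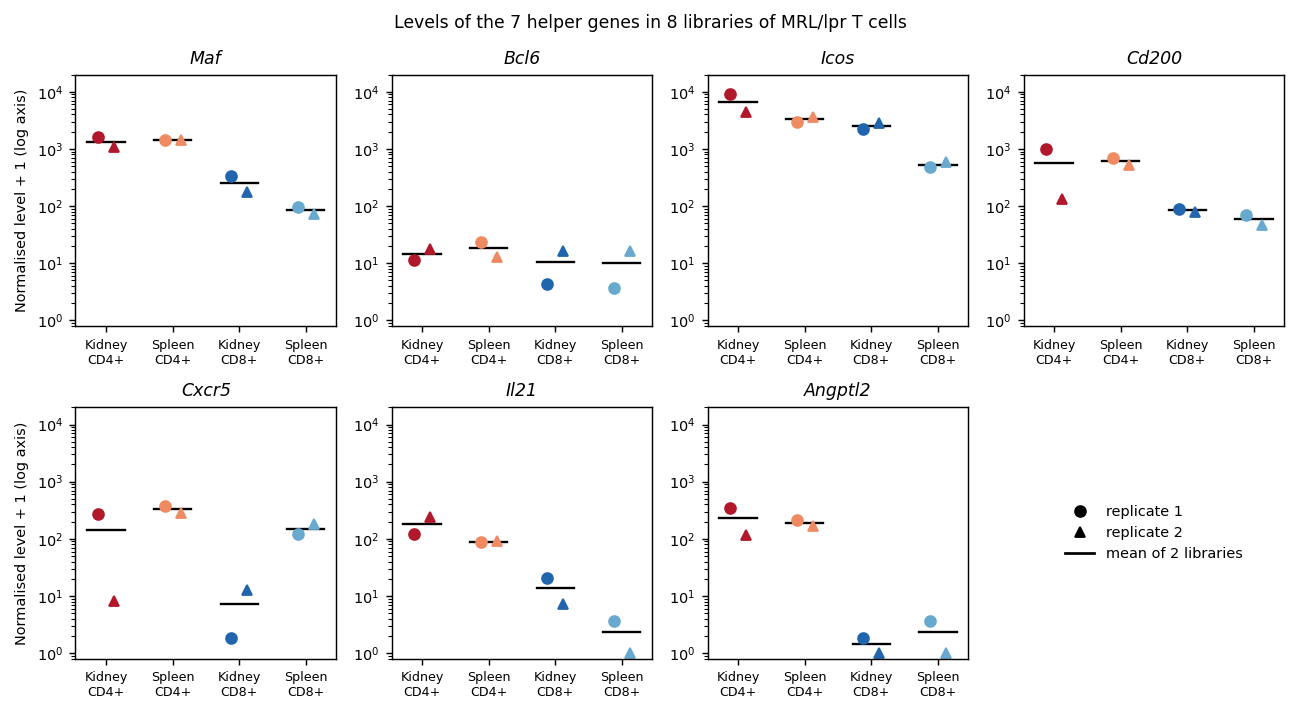
Level + 1 of each of the 7 genes (log axis) in kidney and spleen CD4+ T cells (reds) and kidney and spleen CD8+ T cells (blues). Circles are replicate 1, triangles replicate 2, and bars the mean of 2 libraries; CD4+ points lie above CD8+ points for Maf, Icos, Cd200, Il21 and Angptl2, and kidney CD4+ replicate 2 lies far below replicate 1 for Cxcr5 and Cd200.

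Maf encodes a transcription factor of the AP-1 superfamily that activates Il21 and Il10 in helper T cells. It lies on mouse chromosome 8 (chr8:118206842-118231694, minus strand, mm9). Maf read 1588 and 1061 in kidney CD4+ T cells and 1438 and 1406 in spleen CD4+ T cells, against 335 and 178 in kidney CD8+ and 95.6 and 72.6 in spleen CD8+ T cells. All 4 CD4+ libraries were above all 4 CD8+ libraries, and the CD4+ groups overlapped each other. The difference between lineages was 3.24 ± 0.30 over both organs (adjusted p = 0.00247), and that call was kept in all 20 alternatives run. It was 4.08 ± 0.42 in spleen (16.9-fold, adjusted p = 0.00737), a call lost on leaving out any 1 of the 4 spleen libraries (adjusted p = 0.116 to 0.206). In kidney it was 2.40 ± 0.42 and did not pass (adjusted p = 0.0926), but it passed without kidney CD4+ replicate 1 (0.00672) or replicate 2 (0.00525).

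Within CD8+ T cells Maf was at 257 ± 111 in kidney and 84.1 ± 16.3 in spleen (SD, n = 2 each). The groups did not overlap, and the difference of 1.54 ± 0.42 did not pass (adjusted p = 0.162); without kidney CD4+ replicate 1 or 2, which set part of the shared spread, it did (0.0202 and 0.0217). Macrophages also use Maf, and 8 of 9 listed macrophage markers were in the table. Their summed level was 6792 and 6513 in kidney CD4+, 1681 and 2254 in spleen CD4+, 2353 and 1790 in kidney CD8+, and 841 and 1446 in spleen CD8+ T cells, with Adgre1 at 0 in both spleen CD8+ libraries. Over both organs all 7 tested macrophage markers were higher in CD4+ T cells. Of these, 2 were called (C1qb and Csf1r), beside 0.858% of all genes. Between organs in CD8+ T cells all 7 were higher in kidney. There 2 were called (C1qa and C1qb), beside 1.21% of all genes. C1qb averaged 2146 in kidney CD4+ against 393 in kidney CD8+ T cells, and 253 against 53.3 in spleen. Their part in the Maf values was not tested. Maf shares 440 exon bases with Gm15655 on the opposite strand, and the library kit keeps no strand, so reads there cannot be told apart.

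Bcl6 encodes the repressor that defines follicular helper cells. It lies at chr16:23965138-23988938 (minus strand, mm9). Bcl6 read 10.6 and 16.6 in kidney CD4+ and 22.2 and 12.1 in spleen CD4+ T cells, against 3.40 and 15.4 in kidney CD8+ and 2.69 and 15.3 in spleen CD8+ T cells. These levels rest on 31, 54, 24 and 20 reads per group in the same order, and all groups overlapped. In level per kilobase of exon, Bcl6 was the lowest member in CD4+ T cells, at 2.03 in kidney and 2.56 in spleen, where Maf averaged 161 and 173. No contrast of Bcl6 passed. The lineage difference over both organs was 0.96 ± 0.76 (95% interval -0.77 to 2.68, adjusted p = 0.783), so these data do not tell apart differences within that interval.

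Icos encodes a costimulatory receptor of the CD28 family that binds ICOS ligand on B cells and other antigen-presenting cells. It lies at chr1:61034771-61057164 (plus strand, mm9) and was the most abundant member per kilobase in every group, at 1954 in kidney CD4+, 958 in spleen CD4+, 733 in kidney CD8+ and 155 in spleen CD8+ T cells. Icos read 8982 and 4424 in kidney CD4+ and 2998 and 3577 in spleen CD4+ T cells, against 2183 and 2843 in kidney CD8+ and 476 and 586 in spleen CD8+ T cells. No 2 neighbouring groups in this order overlapped. CD4+ cells exceeded CD8+ cells by 1.98 ± 0.29 over both organs (adjusted p = 0.0178), by 2.63 ± 0.42 in spleen (6.19-fold, adjusted p = 0.0489) and by 1.34 ± 0.42 in kidney, which did not pass (adjusted p = 0.390; 0.00394 without kidney CD4+ replicate 2). Both calls were lost on leaving out any 1 of the 6 libraries other than those of kidney CD4+, with adjusted p from 0.0640 to 0.154 over both organs and from 0.126 to 0.540 in spleen. The spleen call of Icos was also lost with pseudocount 0.5 (0.0545), with no filter (0.0558) and with edgeR (0.0575).

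Icos also passed between organs. In CD8+ T cells it was 4.71-fold higher in kidney than in spleen on the fitted scale (difference 2.24 ± 0.42, 2513 ± 467 against 531 ± 78.0, adjusted p = 0.0395), where 1.21% of all tested genes were called higher. Both kidney libraries were above both spleen libraries. This call too was lost without any 1 of the same 6 libraries (adjusted p = 0.128 to 0.426), with edgeR (0.0630) and with quantile normalisation (0.0627). Markers of other cells also differed by organ in CD8+ T cells. Those of proximal tubule summed to 2210 and 7344 in kidney, against 0 and 1.91 in spleen, and those of neutrophils, 7 of 7 in the table, to 0 and 2.31 in kidney, against 3284 and 5967 in spleen. In CD4+ T cells the neutrophil sums were 28.9 and 2.08 in kidney, against 5316 and 8549 in spleen. The part of these cells in the organ differences of the members was not tested. In CD4+ T cells the kidney level was 6703 ± 3223 against 3287 ± 409 in spleen, a difference of 0.94 ± 0.42 that did not pass (adjusted p = 0.549; 0.0199 without kidney CD4+ replicate 2). Averaged over both lineages the organ difference was 1.59 ± 0.29 (adjusted p = 0.0222, beside 2.71% of genes called higher), and it was lost without the same 6 libraries (0.0837 to 0.161).

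Cd200 encodes a membrane glycoprotein that restrains myeloid cells through its receptor CD200R1 and is displayed by follicular helper cells. It lies at chr16:45382248-45409166 (minus strand, mm9). Cd200 read 988 and 133 in kidney CD4+ and 697 and 516 in spleen CD4+ T cells, against 89.1 and 78.6 in kidney CD8+ and 70.0 and 45.8 in spleen CD8+ T cells. The 4 CD4+ libraries were above all CD8+ libraries even with kidney CD4+ replicate 2 at 133. The lineage difference was 2.74 ± 0.57 over both organs and did not pass (adjusted p = 0.0692). It passed in 8 of 20 alternatives, among them edgeR (0.0342) and the fits without kidney CD4+ replicate 1 (0.00171) or replicate 2 (9.74e-05). In spleen it was 3.38 ± 0.81 (10.4-fold, adjusted p = 0.199; 0.000836 and 0.000741 without kidney CD4+ replicates 1 and 2), and in kidney 2.1 ± 0.81 (adjusted p = 0.526; 0.00200 without kidney CD4+ replicate 2). Between organs in CD4+ cells it was -0.72 ± 0.81 (adjusted p = 0.861), which became -2.16 without replicate 1 (0.00586) and 0.72 without replicate 2.

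Cxcr5 encodes the receptor for CXCL13 that leads cells into B cell follicles. It lies at chr9:44319871-44334504 (minus strand, mm9). Cxcr5 read 272 and 7.28 in kidney CD4+ and 372 and 282 in spleen CD4+ T cells, against 0.849 and 11.6 in kidney CD8+ and 119 and 180 in spleen CD8+ T cells. The 4 spleen libraries were at 119 or more and both kidney CD8+ libraries at 11.6 or less, and the kidney CD4+ libraries stood at either end. In reads, kidney CD4+ replicate 2 had 7 and kidney CD8+ T cells 16 in all, against 998 in spleen CD4+ and 365 in spleen CD8+ T cells.

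Cxcr5 differed most between the organs in CD8+ T cells, where it did not pass the test. There the kidney level was 6.21 ± 7.58 against 149 ± 42.7 in spleen, a difference of -4.93 ± 1.49 (95% interval -8.33 to -1.54, adjusted p = 0.216). The groups did not overlap, which was so for 24.4% of all genes in that direction. The difference passed in 5 of 21 alternatives, namely the fits without kidney CD4+ replicate 1 (0.00919) or 2 (0.00784), with the CD8+ groups alone (0.0306), with DESeq2 (0.00712) and with library weights (0.00431). In CD4+ T cells the difference was -2.77 ± 1.49 (adjusted p = 0.665), -5.29 without replicate 1 (0.00602) and -0.25 without replicate 2. Averaged over both lineages it was -3.85 ± 1.05 (adjusted p = 0.118; 0.000656 and 0.0382 without kidney CD4+ replicates 1 and 2). The lineage difference was 1.14 ± 1.49 in spleen, where the groups did not overlap, and 3.30 ± 1.49 in kidney, where they did (adjusted p = 1 and 0.606; 0.00905 in kidney without kidney CD4+ replicate 2). Over both organs it was 2.22 ± 1.05 (adjusted p = 0.564; 0.00863 without that library).

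B cells also use Cxcr5, and 6 of 10 listed B cell markers were in the table. Their summed level was 182 and 220 in kidney CD4+, 449 and 393 in spleen CD4+, 247 and 233 in kidney CD8+ and 989 and 900 in spleen CD8+ T cells, most of it Cd79b. Ms4a1, which marks B cells, was at 0 to 5.64 in kidney and 6.06 to 47.1 in spleen. All 4 tested B cell markers were lower in kidney in both lineages. In CD4+ T cells 0 were called, and in CD8+ T cells 1 (Cd79b), beside 0.341% of all genes called lower. Averaged over both lineages 3 were called lower (Cd22, Cd79b and Ms4a1), beside 72 of the 10845 tested genes. The part of B cells in the Cxcr5 values was not tested.

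Il21 encodes the cytokine through which helper cells drive germinal centre B cells and plasma cell formation. It lies at chr3:37121681-37131540 (minus strand, mm9). Il21 read 121 and 240 in kidney CD4+ and 85.3 and 88.9 in spleen CD4+ T cells, against 19.5 and 6.17 in kidney CD8+ and 2.69 and 0 in spleen CD8+ T cells. Every group was apart from the next in this order, and the CD8+ values rest on 31 reads in kidney and 4 in spleen. CD4+ cells exceeded CD8+ cells by 4.67 ± 0.63 over both organs (adjusted p = 0.0117), a call lost without spleen CD4+ replicate 1 or 2 (0.108 for both) or spleen CD8+ replicate 2 (0.0543). In spleen the difference was 5.52 ± 0.89 and just failed (adjusted p = 0.0510); it passed without kidney CD4+ replicate 1 (0.0114) or 2 (0.0137). In kidney it was 3.82 ± 0.89 (adjusted p = 0.202; 0.0349 without kidney CD4+ replicate 1).

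Kidney libraries held more Il21 than spleen libraries in both lineages, without passing the test. The organ difference was 0.96 ± 0.89 in CD4+ cells (181 ± 84.3 against 87.1 ± 2.48, adjusted p = 0.821) and 2.66 ± 0.89 in CD8+ cells (12.8 ± 9.44 against 1.35 ± 1.90, adjusted p = 0.286). Il21 shares 35 exon bases with Gm12534 on the opposite strand.

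Angptl2 encodes angiopoietin-like 2, a secreted glycoprotein linked to inflammation of blood vessels and fat tissue. It lies at chr2:33071589-33103237 (plus strand, mm9). Angptl2 read 347 and 117 in kidney CD4+ and 211 and 164 in spleen CD4+ T cells, against 0.849 and 0 in kidney CD8+ and 2.69 and 0 in spleen CD8+ T cells. Reads numbered 604 and 571 in kidney and spleen CD4+ T cells, against 1 and 4 in kidney and spleen CD8+ T cells. The ratio of depth-scaled reads of CD4+ over CD8+ cells was 628 in kidney (95% exact interval 112 to 24855) and 122 in spleen (47.4 to 449), where the intervals cover counting error only.

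On the fitted scale, which for so few reads depends on the pseudocount, Angptl2 differed between lineages by 6.91 ± 0.66 over both organs (adjusted p = 0.00250), a call kept in all 20 alternatives run. Within kidney the difference was 7.22 ± 0.93 (adjusted p = 0.0234), lost without kidney CD8+ replicate 1 (0.251) or 2 (0.0674), spleen CD4+ replicate 1 (0.141) or 2 (0.140), or spleen CD8+ replicate 1 (0.0574), and with pseudocount 0.5 (0.0515), the kidney groups alone (0.324) or library weights (0.381). Within spleen it was 6.60 ± 0.93 (adjusted p = 0.0307), lost without any 1 of the 6 libraries other than those of kidney CD4+ (0.0834 to 0.494) and with pseudocount 0.5 (0.0545). The CD4+ groups overlapped, and their organ difference was 0.11 ± 0.93 (adjusted p = 0.989). Endothelial and stromal cells also make Angptl2. The 2 of 7 endothelial markers in the table summed to 37.4 and 56.2 in kidney CD4+ and 41.0 and 49.2 in spleen CD4+ T cells, against 0 and 12.3 in kidney CD8+ and 13.5 and 25.8 in spleen CD8+ T cells. The 3 of 7 stromal ones summed to 2.11 to 17.7 in all groups. Their part in the Angptl2 values was not tested. The Angptl2 locus lies opposite Ralgps1, with 0 shared exon bases, and Ralgps1 read 39.5 and 0 in kidney CD4+ T cells and 20.5 and 3.45 in spleen CD4+ T cells.

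**Figure D2:**
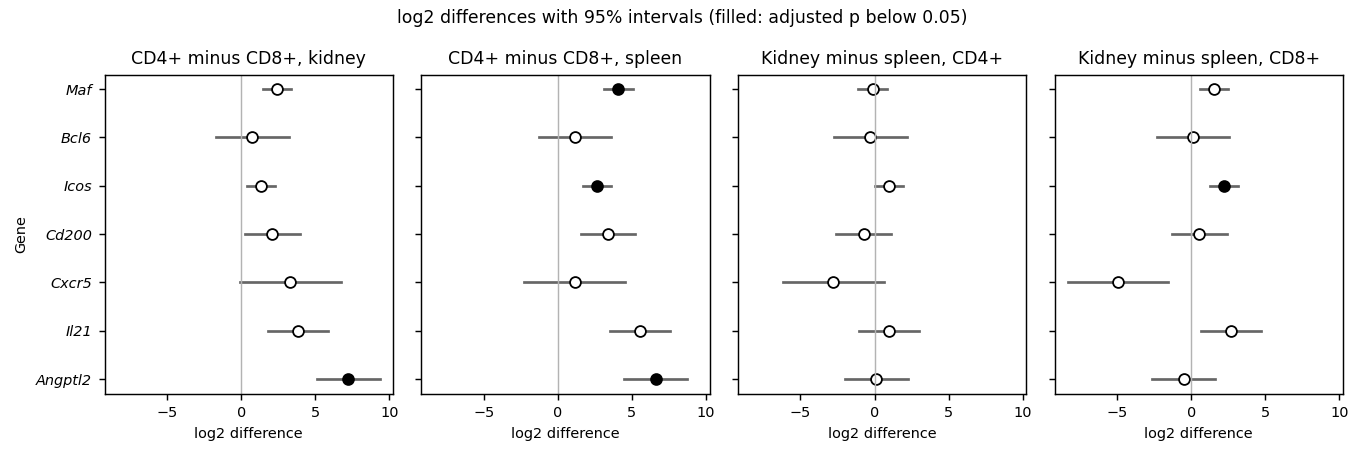
Log2 difference of level + 1 (dot) with its 95% interval (line) for each gene in 4 contrasts; filled dots passed an adjusted p of 0.05. All dots of both lineage contrasts lie right of 0, while organ contrasts straddle 0, with Icos in CD8+ cells as the single filled one.

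Between organs Icos was the only member called. In CD4+ T cells 0 of 7 were called (0.959% of all genes were, in either direction), and 0 by edgeR or DESeq2. By limma 0 members had an unadjusted p under 0.05, beside 988 of the 10845 tested genes. Groups were apart for 2 members higher in kidney (Icos and Il21) and 1 lower (Cxcr5), beside 16.3% and 15.6% of all genes. In CD8+ T cells 1 of 7 was called (1.55% of all genes in either direction). By limma 4 of 7 (Icos, Maf, Cxcr5 and Il21) had an unadjusted p under 0.05, beside 1147 of the 10845 tested genes. Groups were apart for 4 members higher in kidney (Icos, Maf, Il21 and Cd200) and for Cxcr5 lower, beside 26.7% and 24.4% of all genes. The median difference over members was -0.13 in CD4+ and 0.55 in CD8+ T cells, against -0.08 and 0.00 over all genes.

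Whether the organ difference itself differed between lineages was tested as an interaction. No gene of the 10845 passed (0% called), with 362 at an unadjusted p under 0.05 by limma, 0 called by edgeR and 12 by DESeq2. Among members Maf had the smallest p, with -1.67 ± 0.60 (unadjusted p = 0.0221, adjusted p = 0.999). It was followed by Icos at -1.29 ± 0.59 (unadjusted p = 0.0573). Leaving out 1 library at a time, the interaction ran from -1.80 to -0.78 for Icos, -2.72 to 0.16 for Cd200 and -2.13 to -1.22 for Maf.

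Several of these results turned on the kidney CD4+ pair. Replicate 2 was lower than replicate 1 by 5.04 on the log2 scale for Cxcr5, 2.88 for Cd200, 1.56 for Angptl2, 1.02 for Icos and 0.58 for Maf, and higher by 0.98 for Il21 and 0.61 for Bcl6. The median size of the replicate difference over the 7 members was 1.02 in kidney CD4+, 0.36 in spleen CD4+, 0.91 in kidney CD8+ and 0.60 in spleen CD8+ T cells. Replicates 1 and 2 also differed in core T cell genes, with Cd3e at 5456 and 637, Lck at 24569 and 2813, Cd3d at 10077 and 26729, and Cd4 at 2224 and 1686. Markers of proximal tubule (8 of 8 in the table) summed to 2245 and 10221 in kidney CD4+ replicates 1 and 2. In kidney CD8+ replicates 1 and 2 they summed to 2210 and 7344. Their part in the member values was not tested.

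**Figure D3:**
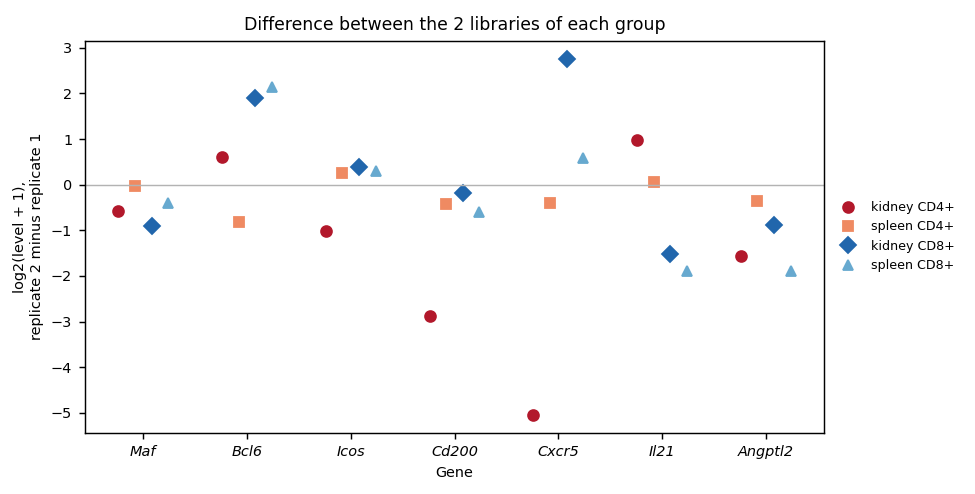
Log2 level + 1 of replicate 2 minus replicate 1 for each gene in the 4 groups. Kidney CD4+ T cells (red circles) fall to -5.04 for Cxcr5 and -2.88 for Cd200, while spleen CD4+ T cells (orange squares) stay between -0.83 and 0.25.

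Scaling each library by 6 T cell genes (Cd3d, Cd3e, Cd3g, Cd247, Cd2 and Lck) moved the median of all genes by 0.49 in the CD4+ organ contrast, -0.17 in the CD8+ one, 0.40 in the kidney lineage contrast and -0.23 in the spleen one. Under that scaling the direction of Maf and of Bcl6 in the CD4+ organ contrast flipped (0.38 and 0.20). Relative to the moved median they were -0.03 and -0.21. Taking off the median largely undoes the scaling, so this does not settle their direction. The differences between CD4+ and CD8+ T cells stayed positive for all 7 members in both organs under the 4 alternative scalings.

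The wider helper programme was followed in 53 further genes in 6 lists by role, also chosen with earlier results of these data known. Of these, 50 were tested. Over both organs 8 of the 50 rose in CD4+ T cells and 0 fell, where 0.858% of all genes were called higher, with a median difference of 0.59 against 0.02 over all genes. The 50 genes include factors that oppose the follicular fate, so this count does not measure a helper programme. In bulk CD4+ T cells such a rise does not show which kind of CD4+ cell carried it. Foxp3, in none of the lists, also stood higher in every CD4+ library (340 to 1665) than in any CD8+ library (2.55 to 11.5). The part of Foxp3-expressing cells in these rises was not tested. Of the 15 surface and signalling genes 6 rose. Tnfrsf4, encoding the costimulatory receptor OX40, was at 20041 ± 3009 and 9865 ± 691 in kidney and spleen CD4+ T cells, against 282 ± 54.6 and 71.9 ± 13.1 in kidney and spleen CD8+ T cells (6.62 ± 0.24, adjusted p = 7.27e-06). Cd40lg, the ligand that signals to CD40 on B cells, was at 2367 and 231 in kidney CD4+ and 603 and 512 in spleen CD4+ T cells, against 5.09 and 14.6 in kidney CD8+ and 0 and 0.955 in spleen CD8+ T cells (adjusted p = 0.00256). Izumo1r, encoding folate receptor 4, had a difference of 4.56 ± 0.25 (adjusted p = 1.61e-04) and Tnfsf8, encoding the CD30 ligand, 3.35 ± 0.29 (adjusted p = 0.00188). The calls of these 4 genes over both organs held in all 20 alternatives. Il2ra (4.0 ± 0.63, adjusted p = 0.0226) and Ctla4 (2.27 ± 0.40, adjusted p = 0.0361) completed the 6, and both were lost without any 1 of the 6 libraries other than those of kidney CD4+ (0.0528 to 0.169 and 0.118 to 0.235).

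Pdcd1, encoding PD-1, which both kinds of helper cell display, did not pass between lineages. It read 11103 and 580 in kidney CD4+ and 2542 and 2205 in spleen CD4+ T cells, against 5022 and 4567 in kidney CD8+ and 906 and 1011 in spleen CD8+ T cells. The lineage difference over both organs was 0.20 ± 0.76 (adjusted p = 0.974). The kidney CD4+ replicates lay on both sides of the kidney CD8+ pair, and the difference was -0.87 (adjusted p = 0.00259) without replicate 1 and 1.26 (adjusted p = 0.00059) without replicate 2.

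Among 9 tested factors that promote the follicular fate, 0 were called between lineages and 2 fell in kidney CD8+ T cells, where 0.341% of all genes were called lower. Tcf7, encoding TCF-1, was at 406 ± 97.5 against 1911 ± 208 in kidney and spleen CD8+ T cells (-2.25 ± 0.38, adjusted p = 0.0284), and Lef1 at 117 ± 100 against 1545 ± 338 (-4.02 ± 0.77, adjusted p = 0.0456). Both were lost without any 1 of the 6 libraries other than those of kidney CD4+ (0.0868 to 0.305 for Tcf7, 0.0605 to 0.381 for Lef1). That of Lef1 was lost with pseudocount 0.5 (0.0542), no filter (0.0502) and edgeR (0.0682) too. Of Irf4 and Pou2af1, next by p, the CD8+ organ differences were 1.68 ± 0.51 (adjusted p = 0.215) and -4.45 ± 1.22 (adjusted p = 0.164). Pou2af1 had 0 reads in both kidney CD8+ libraries, against 28 and 24 in the spleen CD8+ ones. All 4 tested B cell markers were also lower in kidney in this contrast. The part of B cells in the Pou2af1 values was not tested. Of 7 factors that oppose the follicular fate 0 were called in any contrast, Prdm1 (encoding BLIMP-1) included, at 0.71 ± 0.45 over both organs between lineages (adjusted p = 0.706). In the CD8+ organ contrast Id2 differed by 1.09 ± 0.37, Foxp1 by -1.51 ± 0.61 and Klf2 by -1.38 ± 0.66, without passing. Without kidney CD4+ replicate 1 or 2 the differences of Pou2af1 (adjusted p = 0.0145 and 0.0197), Id2 (0.00462 and 0.00518), Foxp1 (0.0157 and 0.0160) and Klf2 (0.00135 and 0.00192) passed, and that of Irf4 did not.

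Of 11 positioning receptors only S1pr1, which guides exit into blood and lymph, was called, in the CD8+ organ contrast, where 1.55% of all genes were called in either direction. It fell to 122 ± 28.8 in kidney CD8+ T cells, against 837 ± 149 in spleen CD8+ T cells (-2.77 ± 0.52, adjusted p = 0.0412; lost without the same 6 libraries, 0.117 to 0.388). Cx3cr1 differed by -2.62 ± 0.57 in the same contrast (adjusted p = 0.0771), and Ccr2 by 1.01 ± 0.36 (adjusted p = 0.324). Both passed without kidney CD4+ replicate 1 (0.0154 and 0.0248) or replicate 2 (0.0153 and 0.0271). In CD8+ T cells the surface list held 1 rise in kidney, Tnfrsf4 (1.96 ± 0.34, adjusted p = 0.0307), and 1 fall, Tnfsf8 (-2.61 ± 0.41, adjusted p = 0.0241), also lost without the same 6 libraries (0.0958 to 0.409 and 0.0810 to 0.267). That of Tnfrsf4 was lost as well with T cell gene scaling (0.134) and edgeR (0.0870). Cd4 read 17.8 and 17.0 in kidney CD8+ T cells, against 0 and 3.82 in spleen CD8+ T cells. In kidney CD4+ T cells Cd4 averaged 1955 and Tnfrsf4 20041. The part of CD4+ cells in the CD8+ organ contrast of Tnfrsf4 was not tested. Over the 50 genes this contrast had 1 rise and 4 falls, with a median of 0.01, beside 1.21% of all genes called higher and 0.341% called lower.

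**Figure D4:**
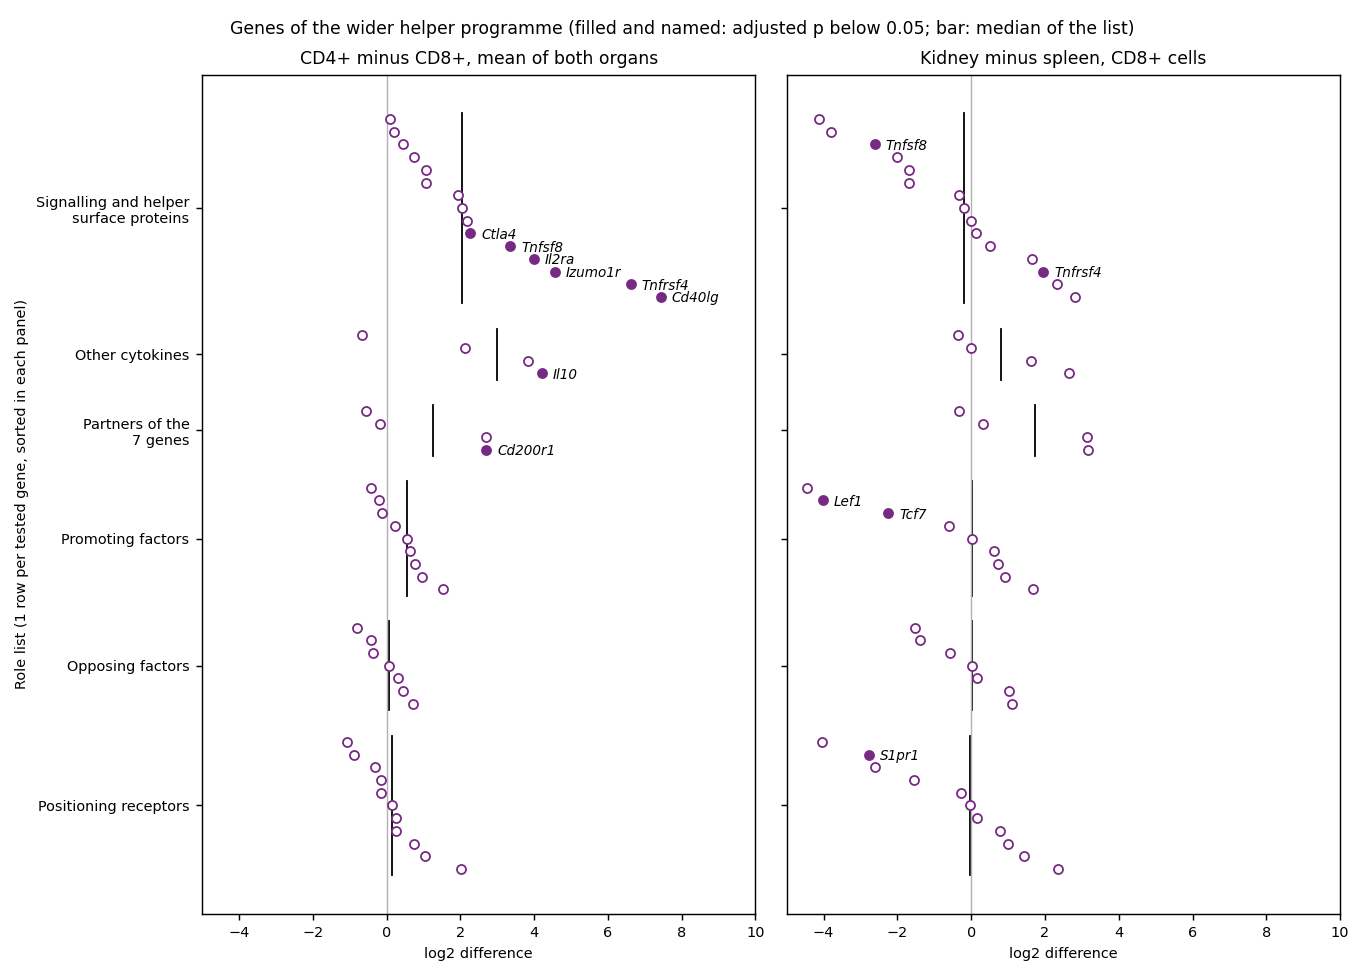
Log2 differences of the 50 tested programme genes in 6 role lists, CD4+ minus CD8+ over both organs (left) and kidney minus spleen in CD8+ cells (right); each circle is a gene and each bar a list median. The 8 filled genes at left are all higher in CD4+ cells, and at right Tnfrsf4 is the single filled gene above 0, with Tnfsf8, Lef1, Tcf7 and S1pr1 below.

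Other cytokines of helper cells were 4. Il10, another MAF target, was at 1074 and 596 in kidney CD4+ and 1134 and 1017 in spleen CD4+ T cells, against 19.5 and 94.0 in kidney CD8+ and 61.9 and 49.7 in spleen CD8+ T cells. Its lineage difference of 4.22 ± 0.48 passed (adjusted p = 0.00479) and was lost without spleen CD4+ replicate 1 (0.0604) or 2 (0.0513). Il4, the cytokine of germinal centre help in the mouse, read 16.2 and 22.9 in kidney CD4+ and 11.6 and 6.90 in spleen CD4+ T cells and 0 in all 4 CD8+ libraries (adjusted p = 0.0538; 0.0155 and 0.0197 without kidney CD4+ replicates 1 and 2). Il17a was the single programme gene called between organs in CD4+ cells, at 128 and 113 in kidney and 0 in both spleen libraries (adjusted p = 0.0319; lost without any spleen library, 0.0858 to 0.273). The Il17a call was also lost with a filter level of 50 in 2 libraries (0.0740), the CD4+ groups alone (0.0805), edgeR (0.0668) and library weights (0.286). Il17a reached a level of 10 in kidney libraries only, and Il4 in CD4+ libraries only. Each thus entered the tests through the groups where it was high. Ifng differed by 1.61 ± 0.35 between organs in CD8+ cells (adjusted p = 0.0752; 0.00113 and 0.00162 without kidney CD4+ replicates 1 and 2).

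The partners that the members bind were measured in the same libraries. Cxcl13, the ligand of CXCR5, which human peripheral helper cells secrete, read 162 and 135 in kidney CD4+ and 44.9 and 15.5 in spleen CD4+ T cells, against 53.5 and 14.6 in kidney CD8+ and 10.1 and 0 in spleen CD8+ T cells. Both kidney CD4+ libraries were above all others, and no contrast passed (2.44 ± 1.19 between organs in CD4+ cells, adjusted p = 0.611). Cd200r1, the receptor of CD200, read 250 and 69.7 in kidney CD4+ and 186 and 140 in spleen CD4+ T cells, against 73.8 and 60.1 in kidney CD8+ and 7.41 and 5.73 in spleen CD8+ T cells. It was called between lineages in spleen (4.43 ± 0.67, adjusted p = 0.0417) and over both organs (2.70 ± 0.48, adjusted p = 0.0361), both lost without any 1 of the 6 libraries other than those of kidney CD4+ (0.104 to 0.545 and 0.100 to 0.249). The spleen call of Cd200r1 was lost too with no filter (0.0536). Il21r and Il2rg, the subunits of the IL-21 receptor, were not called in any contrast (-0.18 ± 0.51 and -0.55 ± 0.55 between lineages over both organs). Il2rg passed there without kidney CD4+ replicate 1 (0.000695). Icosl, the ligand of ICOS, was at 0 to 21.1 and was not tested.

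Profiles over the 8 libraries were compared with those of 4508 well expressed genes, by the root mean square (RMS) difference of centred log2 levels. Angptl2 was nearest to Foxp3 (RMS 0.84), Il1r2 (0.99) and Tnfrsf4 (1.20), where the median candidate stood at 3.57. Foxp3 read 1080 and 340 in kidney CD4+ and 1665 and 1009 in spleen CD4+ T cells, against 2.55 and 5.40 in kidney CD8+ and 10.8 and 11.5 in spleen CD8+ T cells. Cd200 was nearest to Tmem154 (0.22), Trf (0.38) and Serpina3g (0.43), each lower in kidney CD4+ replicate 2 than in replicate 1. Tmem154 read 1115 and 105 in that pair. Icos was nearest to Ctsh (0.28), Capg (0.36) and Ctla4 (0.41), Maf to Ms4a6c (0.58), Ikzf2 (0.66) and Rnase4 (0.66), and Il21 to Nrp1 (0.75), Dhrs3 (0.94) and Ms4a6c (0.97). Cxcr5 was nearest to Enc1 (1.22), Hsd17b4 (1.42) and Ephx1 (1.43), where the median candidate stood at 2.69. Bcl6 was nearest to Pafah1b3 (0.51), Dpm1-adnp (0.57) and Cxx1c (0.57), where the median candidate stood at 1.05.

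**Figure D5:**
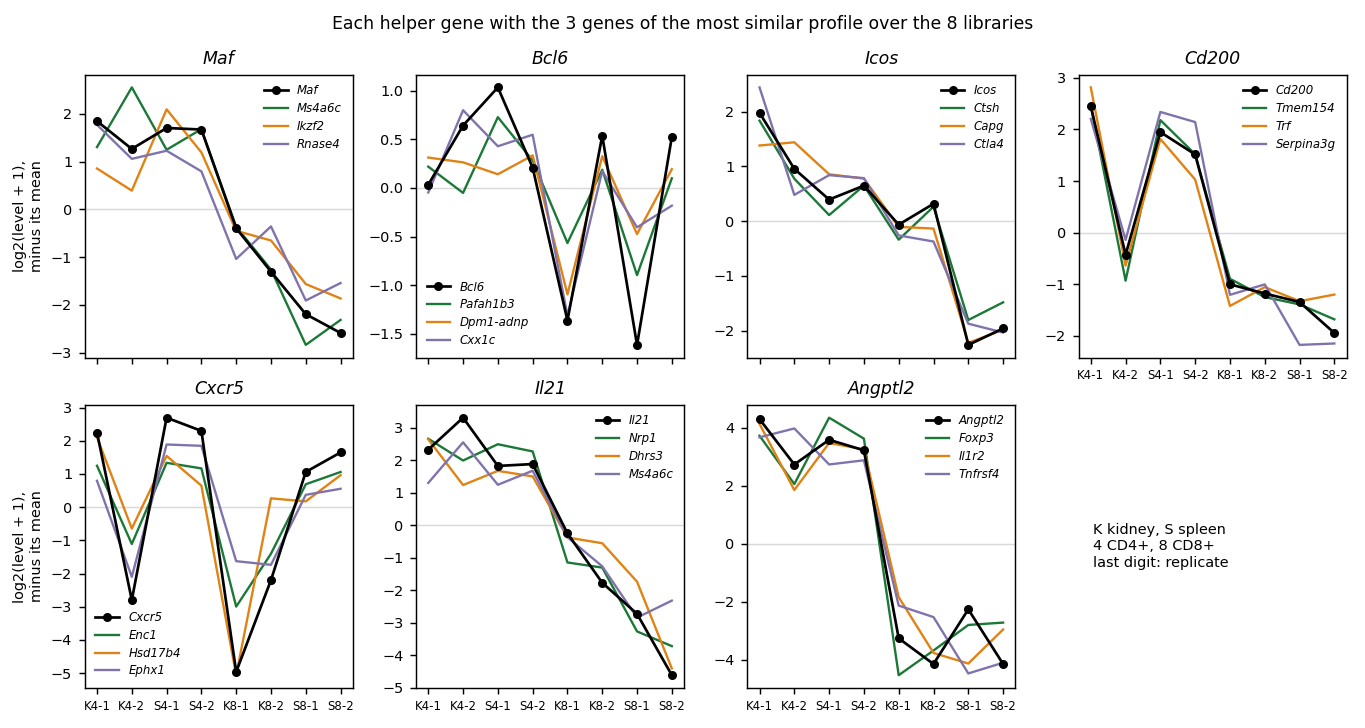
Log2 level + 1 minus its mean over the 8 libraries for each helper gene (black) and its 3 nearest genes (colours); K and S are kidney and spleen, 4 and 8 the lineage, and the last digit the replicate. Lines of Angptl2, Foxp3, Il1r2 and Tnfrsf4 drop between the CD4+ and the CD8+ libraries, and those of Cd200 and its neighbours dip at kidney CD4+ replicate 2.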

How the data were processed

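Sorted CD44hi T cells of each lineage and organ were sequenced in 2 libraries per group after SMART-Seq v4 amplification, per the labels' protocols. Processing notes of the submitters list build mm9, STAR 2.5.3 and TopHat2 2.1.0, while Bowtie stands beside STAR in the series text. How reads were counted, and with which annotation, is not given in the sources used here. A single table of normalised signal (scaled counts), deposited by the authors, covers 13341 genes in 8 columns, all mapped by name, with 0 columns left unused. In every library 100.0% of values were whole multiples of 1 read (tolerance 1e-06), and edgeR and DESeq2 used those reads; their counts of called genes are given with the dependence on processing.

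Contrasts, 7 in all, came from limma 3.58.1 (R 4.3.3) on log2(level + 1), with 1 mean per group, all 8 libraries in a joint fit, a trended prior, 2-sided, and called at an adjusted p below 0.05. The pseudocount understates changes of low genes. Positions and exon lengths are from the GENCODE annotation of mm9, and promoters from RefSeq. Alternatives, at most 21 per value, changed scaling, pseudocount, filter, groups fitted, tool (edgeR 4.0.16, DESeq2 1.42.0), library weights or replicate block, or left out 1 library; a lone library is then assumed to vary like the other groups. The procedure was also run on simulated data with the same spread in every group. That run does not cover the unequal spread of the kidney CD4+ pair.

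Members and all lists were chosen with earlier results of these data known. The text names all members and their partners, up to 4 genes per other role list by smallest adjusted p, and for each member the 3 nearest genes with a mean level of at least 100. Pdcd1 was named after its values were seen. Some genes that this rule or the marker lists would name are not reported here. The labels name no shared source for same-numbered replicates, and the numbers were not used as pairs.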

Additional observations from a re-analysis of the deposited data

How the results depend on the processing

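Of 999 values of the 7 members under alternatives, 850 kept their direction and side of the threshold, 54 lost their call, 57 gained one and 38 turned direction. None of the 38 lay in the CD4+ against CD8+ contrasts of spleen or of both organs, and 1 lay in that of kidney. The cause was not tested for any change given here. The count of called genes was 104 between organs in CD4+ cells (27 with the compared groups alone, 66 with edgeR, 352 with DESeq2, 31 with library weights). In CD8+ cells it was 168 (520, 99, 486 and 577 in the same order), and 1 member (0 with quantile normalisation, 2 with the compared groups alone, 0 with edgeR, 3 with DESeq2, 3 with weights, 0 with the replicate block). For the interaction it was 0, and 12 with DESeq2. Between lineages in kidney it was 22 (38 with quantile normalisation, 49 with pseudocount 10, 3 with the compared groups alone, 215 with DESeq2, 12 with weights), and 1 member (2 with T cell gene scaling, 6 with DESeq2, 0 with pseudocount 0.5, the compared groups alone or weights). In spleen it was 39 (60 with TMM and with quantile normalisation, 83 with pseudocount 10, 702 with the compared groups alone, 234 with DESeq2, 666 with weights, 19 with the replicate block), and 3 members (1 with pseudocount 0.5, 6 with the compared groups alone, 5 with DESeq2 and with weights, 2 with edgeR, no filter or the replicate block). Over both organs it was 141 (446 with DESeq2), and between organs over both lineages 366 (789 with DESeq2), with 1 member (3 with DESeq2, 2 with weights, 0 with the replicate block). Same-numbered libraries deviated together within a lineage (correlations of 0.38 for CD4+ and 0.24 for CD8+) but not across lineages (down to -0.56). With the replicate block the calls of Icos did not pass between organs (adjusted p = 0.0834 in CD8+ cells, 0.0507 over both lineages) or between lineages in spleen (0.111). Nor did those of Tcf7 (0.0586), Lef1 (0.0845), S1pr1 (0.0788) and Tnfrsf4 (0.0648) between organs in CD8+ cells, Il17a in CD4+ cells (0.0529) and Cd200r1 between lineages in spleen (0.0596).

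Leaving out 1 library at a time gave 27 to 1365 genes and 2 to 6 members between lineages over both organs, 3 to 1400 and 0 to 5 in kidney, and 2 to 349 and 0 to 5 in spleen. Between organs it gave 21 to 2361 genes and 0 to 2 members in CD4+ cells, 22 to 755 and 0 to 3 in CD8+ cells, 154 to 2772 and 0 to 2 over both lineages, and 0 to 776 and 0 to 3 for the interaction. The highest gene counts all came without a kidney CD4+ library. Between organs in CD4+ cells the log2 difference then ran from -0.67 to 0.89 for Angptl2, -0.70 to 0.13 for Bcl6, -2.16 to 0.72 for Cd200 and -0.42 to 0.16 for Maf, and in CD8+ cells from -1.44 to 0.44 for Angptl2 and -0.94 to 1.20 for Bcl6. Over both lineages it ran from -0.66 to 0.28 for Angptl2, -0.61 to 0.46 for Bcl6 and -0.80 to 0.64 for Cd200. For the interaction it ran from -0.33 to 1.55 for Angptl2, -1.49 to 0.65 for Bcl6, -2.72 to 0.16 for Cd200 and -0.36 to 4.68 for Cxcr5, and for Bcl6 between lineages in kidney from -0.20 to 1.70. Other turns of direction were those under T cell gene scaling of Bcl6 between organs (0.20 in CD4+ cells, -0.016 in CD8+ cells, 0.091 over both lineages, 0.22 for the interaction), Maf in CD4+ cells (0.38), and Angptl2 and Cd200 over both lineages (0.029 and 0.081). This scaling moves all genes alike. Relative to the moved median the values were -0.21, 0.15, -0.012 and -0.34 for Bcl6 in that order, -0.035 for Maf, -0.074 for Angptl2 and -0.022 for Cd200. Taking off the median largely undoes the scaling, so these values do not settle the direction. Angptl2 also turned with quantile normalisation (0.081 in CD8+ cells, 0.13 over both lineages) and pseudocount 10 (0.00118 over both lineages), and Cd200 over both lineages with edgeR (0.15) and DESeq2 (0.16).

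T cell gene scaling moved the share of calls that were higher in kidney to 64.5%, against 78.0%, in CD8+ cells; in the kidney lineage contrast, calls higher in CD4+ cells made up 70% with it and 57.9% with quantile normalisation, against 40.9%. With 2 libraries per group, members with few reads (Bcl6 in all groups, Il21 and Angptl2 in CD8+ T cells) could show only large differences.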
